A study of Mus musculus with 24 samples.

Results

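Open chromatin in A/J liver was compared between mice returned from high fat to control diet and mice kept on high fat diet. The comparison rests on a pair of peak lists, 1 per diet, restricted to chromosomes 1 to 19. Peaks of the lists that shared at least 1 bp were merged into regions, and each region was called Reversal-only, HF-only or shared by the lists that held a peak in it. This gave 37488 regions, against 49364 in the union of all 6 FAIRE lists of the series. The rule uses the positions of the peaks only, and all 37488 regions are accounted for below.

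In the Reversal group 8 weeks of high fat feeding were followed by 8 weeks of control feeding, and the HF group was fed high fat for all 16 weeks. A further A/J group, Control, was fed control diet for 16 weeks, and C57BL/6J mice were fed by the same 3 regimens. Each strain and diet had 2 FAIRE libraries, and the labels give neither sex nor age at harvest, nor whether the libraries came from separate animals. For Reversal a tag names 16 weeks on control diet, and the 8 weeks of the treatment protocol were taken here. The mice were not sampled before the switch, so that the shorter time on high fat diet and the return to control diet cannot be told apart. With 1 list per group there is no spread between replicates, so no test was run, and intervals on shares cover counting error only.

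FAIRE (formaldehyde-assisted isolation of regulatory elements) recovers DNA that is poorly crosslinked to nucleosomes and so maps the promoters and enhancers that transcription factors hold open. In hepatocytes such elements respond to feeding through lipid- and hormone-sensing transcription factors. A/J mice are known to gain less weight and fat on high fat diet than C57BL/6J mice. Genes at the regions are not named and no sequence is shown, because the lists use the mm9 assembly and no mm9 genome or annotation was used here. For the same reason the liver label could not be checked against marker genes. In whole liver, fewer cells of a type and less open chromatin per cell cannot be told apart.

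The lists held 34741 peaks on Reversal and 33216 on HF, covering 21.4 and 21.0 Mb, with median widths of 470 and 481 bp. The lowest signal that reached the list was 0.125 on Reversal and 0.107 on HF, and a region without a peak can still have been open below that level. Signals are the authors' own values on a scale that is not given. They were turned into a percentile rank within each list, from 0 for the weakest to 100 for the strongest peak, and a rank change is given in points of this scale. How deeply each library was sequenced is unknown here. The HF list stood apart from both other A/J lists by holding more of the C57BL/6J pattern, as the values below show, and the 2 libraries behind it could not be left out in turn. Whether an HF library held C57BL/6J material or was mislabelled was not tested, and this bears on every value of Reversal against HF.

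Most open chromatin was found on both diets. Of the 37488 regions 29666 were shared (79.1%, 95% Wilson interval 78.7 to 79.5), 4613 were Reversal-only (12.3%, 11.98 to 12.64) and 3209 were HF-only (8.56%, 8.28 to 8.85). Regions of 1 list were small, with a median width of 287 bp for Reversal-only and 296 bp for HF-only against 569 bp for shared regions, and they covered 1.51 and 1.16 Mb against 21.1 Mb. The larger number of Reversal-only regions depended on the lengths of the lists. With every list reduced to its 31669 strongest peaks, 3398 regions were Reversal-only and 3470 HF-only. Equal lengths hold these counts near each other by the counting itself.

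The regions of 1 list lay among the weak peaks of that list. The median percentile rank was 11.8 for Reversal-only regions in the Reversal list (quartiles 5.48 and 20.3, highest 55.8) and 11.3 for HF-only regions in the HF list (5.10 and 21.1, highest 58.0). In the weakest 20% of the list, 3426 of 6783 Reversal regions (50.5%) had no HF peak, and 2330 of 6520 HF regions (35.7%) had no Reversal peak. Between ranks 40 and 60 these shares were 1.07% and 1.85%, and above rank 60 no region was held by 1 list alone. Few regions lay near the edge of the 1 bp overlap rule. Of the 28925 shared regions with 1 peak in each list, 1 shared 50 bp or fewer and the median shared 469 bp, while the gap to the nearest peak of the other list had a median of 6023 bp for Reversal-only and 13234 bp for HF-only regions. Gaps of up to 200 bp were found for 236 Reversal-only and 224 HF-only regions. A stricter rule gave larger classes. At a reciprocal overlap of 50%, 5654 regions were Reversal-only and 4129 HF-only, against 4613 and 3209 at 1 bp.

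**Figure D1:**
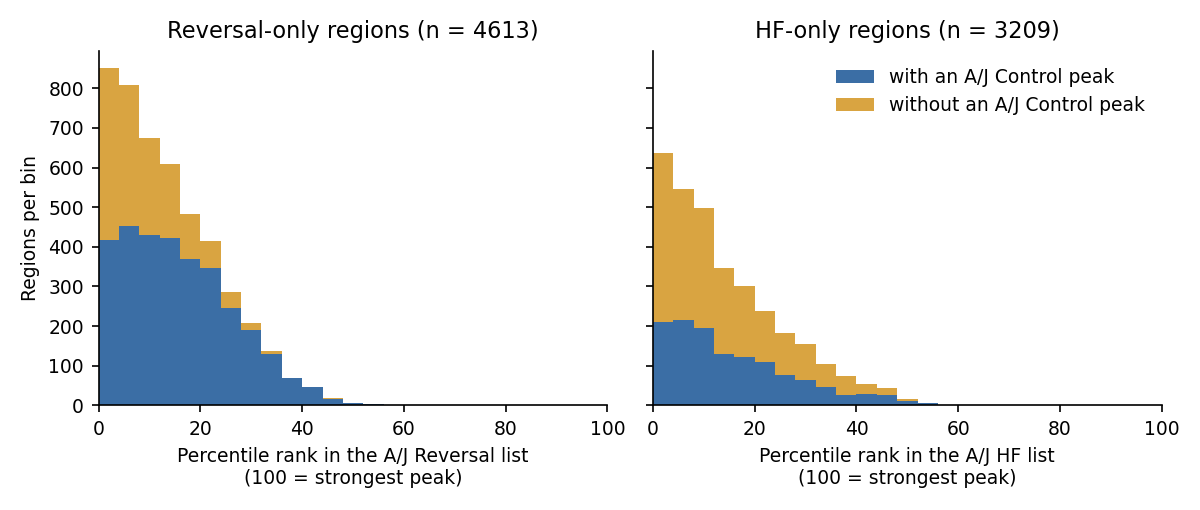
Number of Reversal-only (left, 4613) and HF-only (right, 3209) regions by the percentile rank of their peak in their own list, where 100 is the strongest peak, coloured by whether the A/J Control list holds a peak there. Both classes crowd at the weak end and none lies above rank 60. Most Reversal-only regions, and a minority of HF-only regions, have a Control peak.

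The A/J Control list, which the merging rule did not use, held a peak in 3142 of the 4613 Reversal-only regions (68.1%, 66.8 to 69.4). It held one in 1265 of the 3209 HF-only regions (39.4%, 37.7 to 41.1) and in 98.3% of shared regions. The share was thus 28.7 percentage points higher among Reversal-only than among HF-only regions (Newcombe interval 26.5 to 30.8). The gap was present at each level of signal. Below rank 20 the shares were 61.0% and 37.4%, from rank 20 to 40 they were 88.0% and 42.3%, and from 40 to 60 they were 97.3% of 73 and 59.8% of 122 regions. Where the Control list did hold a peak, it was weak as well, with a median rank of 17.3 in Reversal-only and 11.5 in HF-only regions.

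The C57BL/6J lists, made from other mice, divided the classes the opposite way and more widely. Among HF-only regions of A/J, 65.0% held a peak in the C57BL/6J Control list, 56.5% in C57BL/6J HF and 59.4% in C57BL/6J Reversal. Among Reversal-only regions the shares were 8.71%, 10.6% and 12.9%. At least 1 C57BL/6J peak was found in 2279 HF-only regions (71.0%, 69.4 to 72.6) and in 840 Reversal-only regions (18.2%, 17.1 to 19.3), a difference of -52.8 percentage points (-54.7 to -50.85). The C57BL/6J HF list thus held no larger share of HF-only regions than the C57BL/6J lists of the other diets. Shared regions lay above both classes, at 73.6% to 79.6% in each of these lists.

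Where a region of 1 A/J list also had a C57BL/6J Control peak, that peak usually had the higher rank, in both classes. Regions of 1 list were weak in that list, so that a higher rank in another list is partly set by how they were chosen. For comparison, the A/J Control rank was above the own rank in 58.9% of Reversal-only and 47.0% of HF-only regions with an A/J Control peak. In the 2086 HF-only regions with a C57BL/6J Control peak, the median rank was 14.8 in A/J HF and 45.1 in C57BL/6J Control, and the C57BL/6J rank was the higher one in 1904 of them (91.3%). In the upper 50% of the C57BL/6J Control list lay 891 of them (42.7%). In the 402 Reversal-only regions with a C57BL/6J Control peak, the medians were 9.11 in A/J Reversal and 19.8 in C57BL/6J Control, with the C57BL/6J rank higher in 285 (70.9%) and 29 in the upper 50% (7.21%). Among the strongest HF-only regions, between ranks 40 and 60, 119 of 122 held a C57BL/6J peak. For the 73 Reversal-only regions at these ranks the count was 20.

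**Figure D2:**
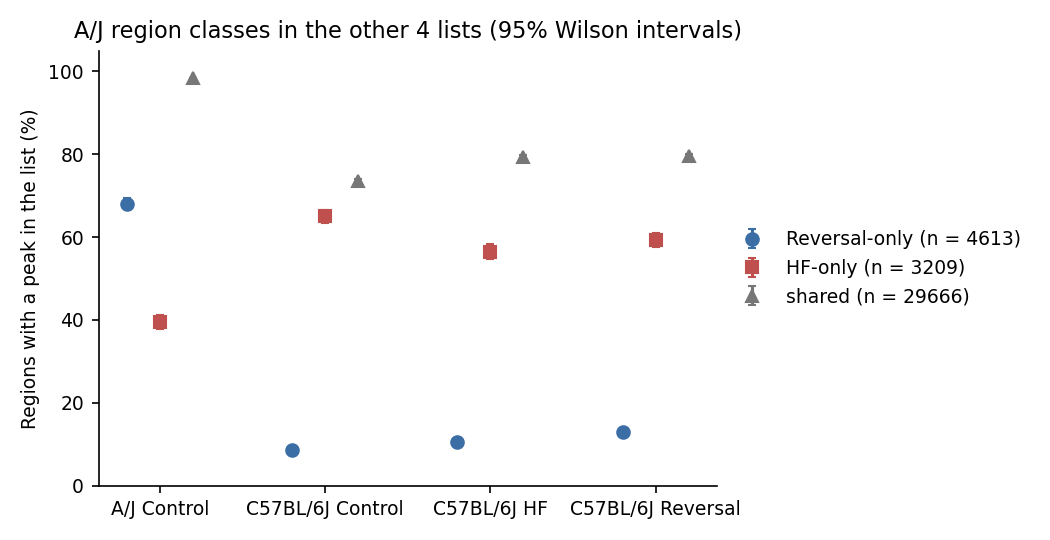
Share of Reversal-only, HF-only and shared A/J regions that hold a peak in each of the 4 lists not used to define them, with 95% Wilson intervals. Reversal-only regions lie at 68.1% in A/J Control and between 8.71% and 12.9% in the C57BL/6J lists, and HF-only regions at 39.4% and between 56.5% and 65.0%.

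Sorted by both readouts, the largest group of Reversal-only regions held an A/J Control peak and no C57BL/6J peak (2485 regions, 53.9%). The largest group of HF-only regions was the opposite, with a C57BL/6J peak and no A/J Control peak (1473 regions, 45.9%). Regions found in none of the other 4 lists were fewer, 1288 Reversal-only (27.9%) and 471 HF-only (14.7%), and were weak, with median ranks of 7.56 and 5.71. The class counts turned with the C57BL/6J lists. Among the 9256 regions without a C57BL/6J peak, 3773 were Reversal-only and 930 HF-only, and among the 22610 with a peak in all 3 C57BL/6J lists, 224 were Reversal-only and 1579 HF-only.

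The 3 strongest regions of each class are given with their values in every list, in mm9 coordinates counted from 1. The strongest Reversal-only region lay on chromosome 10 from 80429006 to 80429466, where the signal was 0.395 on Reversal and 0.381 on A/J Control. In C57BL/6J it reached the Reversal list only, at rank 13.6. The next, on chromosome 4 from 140903189 to 140903828, ranked 53.0 on Reversal and 59.3 on A/J Control, and in C57BL/6J 6.39 on HF and 39.7 on Reversal with no Control peak. The third, on chromosome 9 from 48554642 to 48554981, ranked 52.4 on Reversal and 36.1 on A/J Control and had no C57BL/6J peak. All had a peak on A/J Control, and in C57BL/6J all ranked lower than on A/J Reversal or had no peak.

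The 3 strongest HF-only regions lay on chromosome 4. The first, from 121870756 to 121871142, ranked 58.0 on HF and 16.8 on A/J Control, but 77.7, 80.2 and 68.7 in C57BL/6J on Control, HF and Reversal. The second, from 5826178 to 5826510, ranked 56.7 on HF and 4.81 on A/J Control, against 95.4, 83.2 and 83.6 in C57BL/6J. For the third, from 7318760 to 7319122, the ranks were 56.0 on HF and 22.4 on A/J Control, against 79.9, 66.2 and 60.1 in C57BL/6J. In these regions the HF rank lay between those of A/J Control and every C57BL/6J list.

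Among shared regions the order of signals was much alike on both diets. The Spearman correlation of HF and Reversal rank was 0.93 across 29666 regions, which share their libraries and are not replicates. A single peak in each list was present in 28925 of them (97.5%), and there the summits lay a median of 7 bp apart and within 50 bp in 96.7%. Of the remainder, 416 regions had 1 HF peak and several Reversal peaks, 288 the reverse, and 37 several in both. The 3 regions with the best mean rank lay on chromosome 1 from 24618126 to 24623217, chromosome 2 from 98506214 to 98507696, and chromosome 13 from 85265979 to 85267366. Their signals of 156, 228 and 154 on HF and 262, 242 and 255 on Reversal compare with list medians of 0.259 and 0.332, and each ranked above 99 in all 6 lists. Regions of extreme signal were not filtered out, and whether these signals reflect open chromatin was not tested.

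The median rank change of shared regions, Reversal minus HF, was 0.77 points (quartiles -3.33 and 7.49), and the median size of a change in either direction was 5.28 points. A change of over 10 points was used to call a region changed. By this rule 5686 shared regions (19.2%) ranked higher on Reversal and 2963 (9.99%) ranked lower. Higher ranks made up 65.7% of the changed regions. With lists of equal length this share was 53.8% and the median change -0.12, and with ranks taken among shared regions only it was 52.4% with a median of -0.18, so that the sign of the median depended on list length and on how ranks were taken. Most large changes lay outside the strongest regions, since above a mean rank of 80 only 0.74% ranked higher and 0.46% lower by over 10 points, against 35.2% and 20.4% at mean ranks of 20 to 40.

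**Figure D3:**
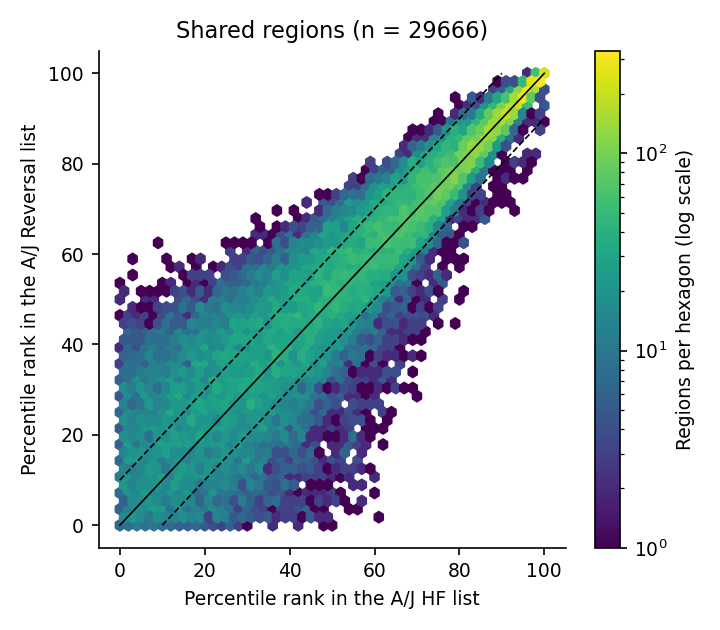
Percentile rank in the A/J HF list (x axis) and the A/J Reversal list (y axis) of the 29666 shared regions, with the number of regions per hexagon on a log colour scale. The solid line marks equal ranks and the dashed lines a change of 10 points. The spread is wide at low ranks and narrows toward the strongest regions.

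Where the rank was higher on Reversal, the A/J Control rank usually lay near it. Of the 5686 such regions 5589 held a Control peak, and in 4730 of these (84.6%, 83.7 to 85.6) the Control rank was nearer to the Reversal than to the HF rank, with medians of 27.2 on HF, 46.5 on Reversal and 46.1 on Control. Where the rank was lower on Reversal the shares were near even, with 1462 of 2841 (51.5%, 49.6 to 53.3) nearer to Reversal and medians of 43.4, 23.9 and 34.9. In lists of equal length these shares were 76.6% and 64.6%. Over all 29170 shared regions with a Control peak, the median distance in rank from Control was 3.13 points for Reversal and 5.10 points for HF.

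The changed regions also differed by their state in C57BL/6J. All 3 C57BL/6J lists held a peak in 76.0% of the regions that ranked lower on Reversal and in 29.9% of those that ranked higher. None did in 11.5% and 37.9%. Over all shared regions the shares were 70.1% with all 3 lists and 15.3% with none. Regions lower on Reversal thus lay near the shares of all shared regions, and regions higher on Reversal lay further off. Read the other way, shared regions without a C57BL/6J peak had a median rank change of 9.07 points, with 47.4% of 4553 higher on Reversal by over 10 points and 7.49% lower, against 19.2% and 9.99% of all shared regions. In the 20807 shared regions that every C57BL/6J list held the median was -0.17 points, with 8.18% higher and 10.8% lower. The median HF rank was 19.7 in regions without a C57BL/6J peak and 68.4 in regions that every C57BL/6J list held. Large changes were more frequent at low than at high ranks, as given above. Whether the state in C57BL/6J mattered apart from rank was not tested.

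**Figure D4:**
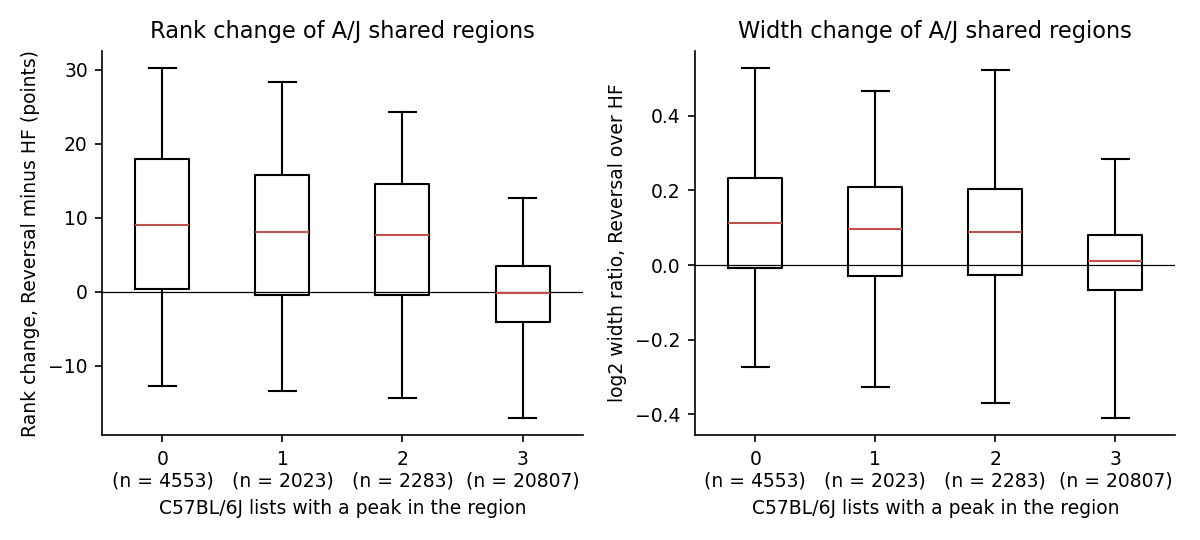
Rank change in points (left) and log2 width ratio (right) of A/J shared regions, Reversal against HF, by the number of C57BL/6J lists with a peak in the region. Boxes give the quartiles with the median as a red line, and whiskers the 5th and 95th percentiles over regions. The median rank change is 9.07 points with no C57BL/6J peak and -0.17 points with a peak in all 3 lists. The median HF rank of these groups is 19.7 and 68.4.

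The size of the strain difference was set against the diet change in the 20681 shared regions with a peak in A/J Control and in all 3 C57BL/6J lists, a split chosen after the data were seen. Strains were compared on control diet, in lists that do not enter the Reversal and HF ranks. In the 458 regions ranked over 40 points higher in C57BL/6J Control than in A/J Control, the median rank was 74.6 in C57BL/6J Control, 45.4 in A/J HF, 18.6 in A/J Reversal and 19.7 in A/J Control. Of these, 79.9% ranked lower on Reversal than on HF by over 10 points, with a median change of -24.55 points. In the 1008 regions ranked over 40 points lower in C57BL/6J Control, the medians were 15.2, 57.2, 66.1 and 68.2 in the same order, 42.3% ranked higher on Reversal, and the median change was 8.78 points.

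Between these ends the change followed in order. The median rank change was 6.44, 3.39, -0.51, -5.15 and -10.35 points from regions 20 to 40 points lower in C57BL/6J Control to regions 20 to 40 points higher. Where strains differed by at most 10 points on control diet (11105 regions), 2.39% ranked higher and 4.59% lower on Reversal by over 10 points, against 8.18% and 10.8% of the regions that every C57BL/6J list held. These 11105 were strong regions, with a median HF rank of 81.1, and strong shared regions seldom changed by this much, as given above. In each stratum but the middle one the HF median lay between A/J Control and C57BL/6J Control, while the Reversal median lay within 3 points of A/J Control. At both ends the direction was the same with C57BL/6J HF in place of C57BL/6J Control (median changes of 5.72 and -25.18 points), with C57BL/6J Reversal (3.18 and -26.44), and in lists of equal length (7.73 and -25.39). The part of this strain-linked signal in the difference between the A/J diets was not tested, and with 1 list per diet, an effect of diet, C57BL/6J material in an HF library and a mislabelled library cannot be told apart.

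**Figure D5:**
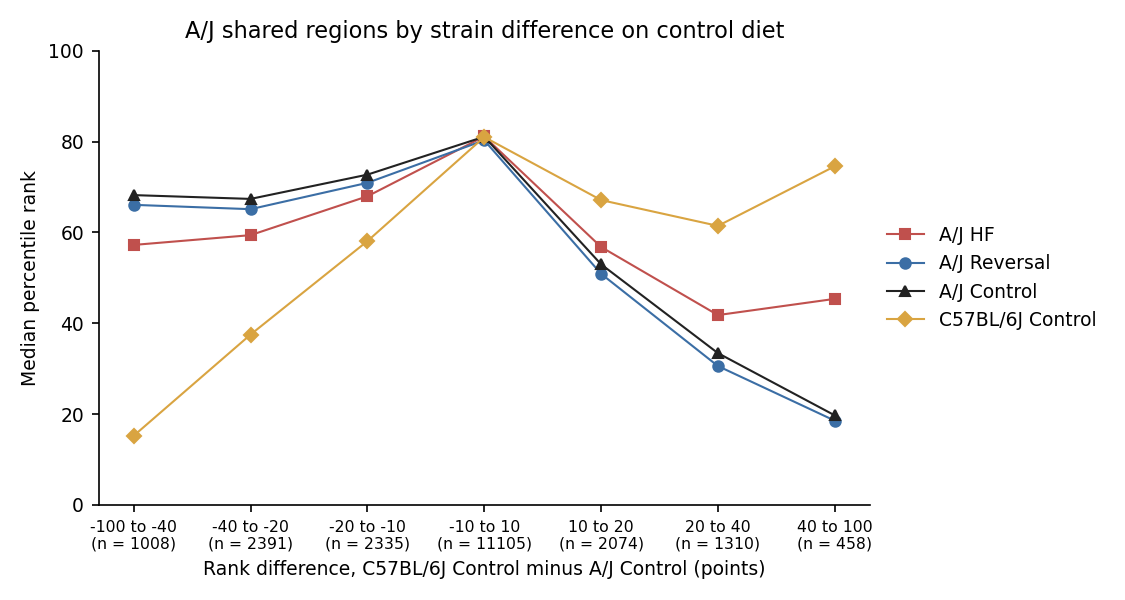
Median percentile rank in 4 lists of A/J shared regions, grouped on the x axis by the rank difference between C57BL/6J Control and A/J Control in points, with the number of regions in parentheses. A/J Reversal follows A/J Control throughout, and A/J HF lies between A/J Control and C57BL/6J Control at both ends.

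The regions with the largest rank changes went further from A/J Control than the medians of these strata. The largest change toward Reversal lay on chromosome 5 from 123332566 to 123333059, with rank 3.11 on HF, 59.3 on Reversal and 45.7 on A/J Control and no peak in C57BL/6J. On chromosome 4 from 122657024 to 122657451 the ranks were 0.911, 54.1 and 37.5, with a peak at rank 14.4 in C57BL/6J HF alone. The third, on chromosome 13 from 36085879 to 36086378, ranked 9.81, 62.1 and 40.6, and 33.8 and 37.7 in C57BL/6J HF and Reversal.

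The largest change toward HF lay on chromosome 11 from 46489228 to 46489628, with rank 60.3 on HF, 2.39 on Reversal and 18.8 on A/J Control, and with 76.0, 67.5 and 53.9 in C57BL/6J on Control, HF and Reversal. On chromosome 13 from 81608552 to 81608853 the A/J ranks were 55.8, 3.35 and 25.4, against 92.7, 76.5 and 82.25 in C57BL/6J. A further one on chromosome 18 had A/J ranks of 60.8, 7.40 and 12.8 and a C57BL/6J Control rank of 91.4. These 3 regions thus ranked above 50 in every C57BL/6J list, and the HF rank on chromosome 11 was above that of C57BL/6J Reversal. In all 3 regions of each direction the A/J Control rank lay between those of HF and Reversal.

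Widths changed little. Bases covered by peaks of a shared region had a median of 522 bp on HF and 528 bp on Reversal, and the median ratio of Reversal to HF was 1.02 (quartiles 0.962 and 1.09), or 0.03 on the log2 scale. A change of over 1.5-fold was seen in 647 wider regions (2.18%) and 746 narrower ones (2.51%). Divided by the median peak width of each list the log2 median was 0.06. Width moved with rank: regions that ranked higher on Reversal were 341 bp wide on HF and 392 bp on Reversal by median, and those that ranked lower 437 and 389 bp. The Spearman correlation of rank change and log2 width ratio was 0.49 across the 29666 regions, whose rank and width come from the same peaks.

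Change also went with size, and size with rank. In the narrowest 20% of shared regions, up to 326.5 bp wide by the mean of both lists, 35.1% ranked higher on Reversal by over 10 points and 14.4% lower. In the widest 20%, from 964.5 bp, these were 2.80% and 5.09%, against 19.2% and 9.99% of all shared regions. The median HF rank was 24.6 in the narrowest and 84.5 in the widest 20%. Whether size mattered apart from rank was not tested.

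The widest changes among regions with 1 peak in each list were local. On chromosome 1 from 159010914 to 159011924 the peak was 264 bp wide on HF, 1011 bp on Reversal and 710 bp on A/J Control. On chromosome 7 from 106303816 to 106305605 it was 459 bp on HF, 1755 bp on Reversal and 575 bp on A/J Control at like ranks of 73.5, 66.0 and 68.1. On chromosome 11 from 101239456 to 101240680 it was 322, 1225 and 1162 bp, and here the rank was 36.7 on HF, 59.9 on Reversal and 65.5 on Control. The A/J Control width lay nearer to Reversal on chromosomes 1 and 11 and nearer to HF on chromosome 7.

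The largest narrowing, on chromosome 11 from 3037963 to 3040292, went from 2330 bp on HF to 408 bp on Reversal with 1561 bp on A/J Control, beside a rank of 46.6, 25.1 and 35.2. The C57BL/6J peaks there ranked 99.0, 92.4 and 94.2 on Control, HF and Reversal. They were 32257, 32302 and 9981 bp wide and so reached far beyond the A/J region of 2330 bp. On chromosome 3 from 9250509 to 9252035 the width was 1527 bp on HF, 285 bp on Reversal, 376 bp on A/J Control and between 1402 and 1535 bp in C57BL/6J. On chromosome 7 from 20256928 to 20258983 it was 2056, 477 and 1880 bp, at ranks between 3.34 and 11.2 and with no C57BL/6J peak.

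The classes were spread over the genome. Reversal-only regions were more numerous than HF-only regions on all 19 chromosomes in lists of full length, from 11.02% of regions on chromosome 11 to 13.9% on chromosome 4 for Reversal-only, and from 6.57% on chromosome 11 to 11.7% on chromosome 18 for HF-only. The median rank change was above 0 on 18 chromosomes, with -0.01 points on chromosome 3, in lists of full length. In the 412 windows of 5 Mb with at least 20 regions the median share was 12.1% Reversal-only and 8.72% HF-only.

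The windows with the highest share of each class are given here. On chromosome 5 from 15 to 20 Mb, 18 of 24 regions were HF-only, between 15010737 and 17782040. The A/J HF list held 22 peaks in this window, against 6 on Reversal, 5 on A/J Control and 17, 9 and 7 in C57BL/6J on Control, HF and Reversal. These 18 regions ranked between 0.911 and 36.1 on HF, 3 held an A/J Control peak and 6 a C57BL/6J peak. The highest Reversal-only share of the 412 windows lay on chromosome 13 from 25 to 30 Mb. There 6 of 20 regions (30.0%) were Reversal-only and none was HF-only. With 20 regions this window was at the minimum size, and its 14 shared regions had a median rank change of -4.90 points.

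By rank, the window with the lowest median change, named after its value was seen, was chromosome 8 from 15 to 20 Mb, at -13.12 points over 51 shared regions, with 29 of 87 regions HF-only and 7 Reversal-only. The highest was chromosome 6 from 70 to 75 Mb, at 5.83 points over 104 shared regions.

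The same comparison in C57BL/6J gave 34984 regions, of which 28093 were shared (80.3%), 3325 Reversal-only (9.50%) and 3566 HF-only (10.2%). Of the C57BL/6J Reversal-only and HF-only regions, 55.6% and 40.8% held an A/J Control peak, and 49.8% and 40.9% an A/J HF peak. The Control list of their own strain held a peak in 46.4% of C57BL/6J Reversal-only and 42.8% of C57BL/6J HF-only regions, where the A/J shares were 68.1% and 39.4%. The median rank change was -0.25 points, with 9.69% of shared regions higher on Reversal by over 10 points and 10.5% lower, against 19.2% and 9.99% in A/J. In C57BL/6J 3.81% of shared regions were wider by over 1.5-fold and 1.29% narrower, against 2.18% and 2.51% in A/J. Whether the strains differ in these shares was not tested.

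In regions held by the HF and Reversal lists of both strains, the C57BL/6J median had the same sign as the A/J change, whose values chose the regions. In 2462 regions that ranked higher on Reversal in A/J, by a median of 14.3 points, the C57BL/6J median was 3.65 points (95% interval 3.05 to 4.10, over regions), and 26.7% ranked higher there by over 10 points and 12.9% lower. In 2322 regions that ranked lower on Reversal in A/J, by a median of -16.10 points, the C57BL/6J median was -2.12 points (-2.42 to -1.83), with 9.26% higher and 14.6% lower. In the 17556 regions within 10 points in A/J, the C57BL/6J median was -0.05 points, with 6.48% higher and 5.22% lower. Changes of over 10 points in C57BL/6J were thus more frequent in both directions where A/J had changed, whichever way A/J went. Over all A/J shared regions, the median HF rank was 26.8 where the rank was higher on Reversal and 42.6 where it was lower. In regions within 10 points the median HF rank was 66.7. Whether the C57BL/6J changes were more frequent apart from rank was not tested. Across all 22340 regions held by these lists in both strains the Spearman correlation of both changes was 0.26. It is a description over regions that share libraries within each strain.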

How the data were processed

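FAIRE-seq libraries of A/J liver on the Reversal and HF diets, 2 per diet, were compared through the deposited peak lists, 1 per strain and diet. Strain and diet of a list are known from its name. The authors' lists give a start, end, summit and signal per peak, with no p or q. Per the submitters' processing notes mm9, Bowtie2, TopHat and DESeq2 were named without version or role, and the peak caller, its threshold and any pooling of libraries are not given in the sources used here. RNA-seq tables were not used here.

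Peaks were restricted to chromosomes 1 to 19 and merged at an overlap of at least 1 bp (Python 3.11.15, pandas 2.3.3), with counts checked against bedtools 2.31.1 and tested on simulated data. Each region took the percentile rank of its strongest peak and the summed width of its peaks per list. Changes of over 10 points or 1.5-fold were counted. Shares carry 95% Wilson intervals and differences Newcombe intervals (scipy 1.17.1), and medians over regions carry order-statistic intervals. Regions are not replicates. No test was run. Regions named were the 3 strongest or most changed of each class and the windows and chromosomes with the highest and lowest class shares. The members and lists were chosen with earlier results of these data known. The alternatives were other overlaps, shorter lists, and other ranks and widths. Splits by C57BL/6J peaks were added after the data were seen.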

Additional observations from a re-analysis of the deposited data

Results flagged for a closer look

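The balance of the classes had opposite signs in the strains. Reversal-only minus HF-only regions came to 1404 in A/J and -241 in C57BL/6J, each from 1 list per diet, and the difference was not tested. With 31669 peaks in every list the values were -72 in A/J and 199 in C57BL/6J, so that both signs changed when lengths were made equal. Equal lengths hold the class counts near each other by the counting itself. Why the signs differed between the strains therefore cannot be read from these values.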

How the results depend on the processing

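No paired analysis was possible because each strain and diet has 1 peak list and no list per library, and leaving out a replicate was not run for the same reason. A list without depth or threshold limits what absence of a peak means. Other overlaps and shorter lists left the direction of the contrast in Control and C57BL/6J peaks in place. For the Control peak, Reversal-only exceeded HF-only by 23.7 points at a reciprocal overlap of 50% and by 31.7 in the stronger 75% of each list, and for a C57BL/6J peak the difference was -44.8 and -56.9. HF-only regions numbered 2100 in the stronger 75%.

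With equal numbers of peaks the shares past 10 points were 15.3% higher and 13.1% lower on Reversal and the median change turned to -0.12, and with ranks among shared regions they were 15.1% and 13.7% with a median of -0.18. The share of changed regions with a Control rank nearer to Reversal was 76.6% of higher and 64.6% of lower ones with equal numbers, 87.4% of higher ones in the stronger 75%, and 86.0% and 63.3% at 20 points. The C57BL/6J median change in regions higher or lower in A/J was 4.69 and -1.59 points with equal numbers and 4.37 and -2.95 in the stronger 75%. The log2 width median was 0.023 in the stronger 75% and 0.059 over the list medians.

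Among added restrictions, regions with a peak in all 3 C57BL/6J lists gave 224 Reversal-only and 1579 HF-only regions, a Control difference of 47.7 points, 8.18% higher and 10.8% lower, a median of -0.17, a log2 width of 0.010, Control nearer to Reversal in 91.5% and 53.6%, and a C57BL/6J median of 4.29 in higher regions. Regions with no C57BL/6J peak gave 930 HF-only regions, 16.5 points, 47.4% and 7.49%, a median of 9.07, a log2 width of 0.11, and 76.5% and 44.4%. Shared regions within 10 points between the strains on Control gave 2.39% and 4.59%, a median of -0.51, a log2 width of 0.0071, and 83.4% and 29.2%. The cause of these shifts was not tested.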
